A study of Mus musculus with 86 samples.

Results

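The 9 genes described here encode collagen chains that build or coat the banded fibres of the interstitial matrix: Col1a1, Col1a2 and Col3a1 (types I and III), Col5a1, Col5a2, Col5a3 and Col11a1 (types V and XI), and Col12a1 and Col14a1 (types XII and XIV). They were chosen by family membership, not by a measured value, and are 9 of 31054 genes in the read-count tables and 9 of 38277 genes in the FPKM tables. FPKM is fragments scaled to transcript length in kilobases and to the library's total. All 9 were found in both kinds of table.

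Bulk RNA-seq had been made from mouse kidney, liver and lung in models of tissue scarring, to compare animals with and without the receptor tyrosine kinase MERTK, or with and without UNC569, a small-molecule MERTK inhibitor. In the knockout experiment, kidneys came after unilateral ureteral obstruction (UUO) or a sham operation, and livers after bile duct ligation (BDL) or a sham operation. Each model had a Mertk knockout (KO) label and a wild type (WT) label. The libraries used were 4 UUO KO, 3 UUO WT, 4 sham KO and 3 sham WT kidneys, and 4 BDL KO, 4 BDL WT, 4 sham KO and 4 sham WT livers, and 1 further UUO WT and 1 further sham WT kidney entered only an alternative fit. In the inhibitor experiment every animal was wild type, and each received injections of UNC569 or of the solvent DMSO. Its FPKM columns were 7 UUO UNC569, 4 UUO DMSO, 3 sham UNC569 and 3 sham DMSO kidneys, 4 BDL UNC569, 6 BDL DMSO, 3 sham UNC569 and 3 sham DMSO livers, and 6 bleomycin UNC569, 6 bleomycin DMSO, 3 sham UNC569 and 3 sham DMSO lungs. The labels give no age, strain, dose or time after injury.

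Fibrillar collagens are made as procollagen chains that wind into triple helices in the endoplasmic reticulum, are trimmed outside the cell and line up into fibrils that lysyl oxidases cross-link. Type I is the main fibril of scar tissue and type III runs with it in softer organs, types V and XI sit inside the fibril and start its assembly, and types XII and XIV (fibril-associated collagens with interrupted triple helices) bind its surface. In kidney, liver and lung these chains are made mainly by fibroblasts, pericytes and, in liver, stellate cells, and their rise is a common readout of fibrosis. Bulk RNA cannot tell a change in the number of such cells from a change in RNA per cell.

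The kidney libraries held 7216322 to 28451863 reads in genes and the liver libraries 14500094 to 23352846. The library sham WT 3 of the kidney stood apart: it had the fewest reads in genes, 58.5% of its reads were unmapped, and 7 of its 9 collagen values lay within or above the range of the obstructed kidneys, the exceptions being Col12a1 and Col14a1. UUO WT 3 had the lowest values of 7 members among the 7 UUO kidneys. The labels mark both as having a bad fastq file, and results that rest on them are given with and without them. UUO KO 4 also stood apart: 32% of its reads were unmapped, where every used kidney but it and sham WT 3 had at most 8.78%, its podocyte markers summed to 108 CPM, against 324.4 CPM or more in the other UUO kidneys, and it held the lowest UUO KO value of 5 members. Defining markers were where the tissue labels place them: 6 proximal tubule markers summed to 20498.1 to 47961.3 CPM (read counts scaled to a common library size) in sham kidneys of the knockout experiment, 6 hepatocyte markers to 88411.1 to 111467.4 CPM in its sham livers, and 5 alveolar markers to 3433.1 to 5198.7 FPKM in sham lungs. The KO label was not mirrored in the Mertk count of the kidney, which was 44.5 to 63.0 CPM in UUO KO kidneys and 51.1 to 65.0 CPM in UUO WT kidneys. In liver it was 6.95 to 18.8 CPM in BDL KO livers and 21.3 to 28.4 CPM in BDL WT livers (log2 fold change -0.97, edgeR adjusted p = 0.0614), and the sham groups overlapped. A gene-level count does not show which exons were read, so the groups are called KO-labelled. No label ties a library to an animal, so every p-value measures the spread between these libraries.

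Positions are in the mm10 build, which is GRCm38. Col3a1 (chr1:45311538-45349706, plus strand) and Col5a2 (chr1:45374321-45503282, minus strand) are neighbours 24614 bases apart and run toward each other. Col1a1 lies at chr11:94936224-94953042 and Col1a2 at chr6:4504814-4541544, both on the plus strand. Col5a1 (chr2:27886425-28039514) and Col11a1 (chr3:114030540-114220718) are on the plus strand and Col5a3 (chr9:20770050-20815067) is on the minus strand. Col12a1 (chr9:79598991-79718831) is on the minus strand and Col14a1 (chr15:55307750-55520803) on the plus strand. Exonic length runs from 6563 bases in Col1a1 to 15228 bases in Col12a1. The library kit does not mark strand. Strand therefore cannot separate reads of Col5a1, Col5a3, Col12a1 and Col14a1 from those of opposite-strand genes that overlap them. Col1a2, Col3a1 and Col5a2 each overlap 1 gene annotated on their own strand.

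The 200 bases before the start site of 4 members are printed to show the DNA in front of members with unlike results: high chains in injured tissue (Col1a2, Col3a1), a chain of intermediate level (Col5a1) and one that fell in injured liver (Col5a3). The sequences are from RefSeq on GRCm38.p6, which holds 5 of the 9 promoters, and read in the direction of transcription. Capitals mark whole matches, on either strand, to CCAAT (bound by NF-Y), TATAAA (the TATA box), GGGCGG (the GC box), CAGAC (bound by SMAD proteins), TGANTCA (the AP-1 site) or GGAATG (bound by TEAD proteins). A match on the opposite strand reads as the reverse complement.
Col1a2: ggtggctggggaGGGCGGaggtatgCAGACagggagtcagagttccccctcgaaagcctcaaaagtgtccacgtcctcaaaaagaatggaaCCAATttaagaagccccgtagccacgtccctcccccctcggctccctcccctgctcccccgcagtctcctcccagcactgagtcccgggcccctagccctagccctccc
Col3a1: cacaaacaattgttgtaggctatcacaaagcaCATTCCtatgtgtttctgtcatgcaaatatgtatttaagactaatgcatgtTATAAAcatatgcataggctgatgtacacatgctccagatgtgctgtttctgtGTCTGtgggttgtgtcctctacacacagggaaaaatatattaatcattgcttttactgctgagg
Col5a1: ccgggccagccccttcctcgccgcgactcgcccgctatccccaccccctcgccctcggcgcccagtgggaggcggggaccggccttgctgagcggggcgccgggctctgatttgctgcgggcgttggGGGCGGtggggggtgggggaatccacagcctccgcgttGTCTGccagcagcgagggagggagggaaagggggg
Col5a3: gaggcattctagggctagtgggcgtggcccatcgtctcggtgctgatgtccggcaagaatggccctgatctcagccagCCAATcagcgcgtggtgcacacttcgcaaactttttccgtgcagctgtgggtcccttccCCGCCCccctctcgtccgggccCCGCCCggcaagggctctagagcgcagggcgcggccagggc
The windows lie at chr6:4505418-4505617 (plus), chr1:45311338-45311537 (plus), chr2:27886225-27886424 (plus) and chr9:20815068-20815267 (minus). The RefSeq start of Col1a2 lies inside its longer GENCODE gene model. Col1a2 carried CCAAT 105 to 109 bases before its start, Col5a3 carried it 118 to 122 bases before, and Col3a1 alone of the 4 carried TATAAA, 112 to 117 bases before. Col5a3 was the one of these 4 without a CAGAC match. The G and C share was 63.5% in Col1a2, 37.5% in Col3a1, 75.5% in Col5a1 and 67% in Col5a3. Over all 32851 promoters of the table, searched in 250 bases, CCAAT was found in 33.8%, TATAAA in 12.4%, GGGCGG in 32.7%, CAGAC in 42.2%, TGANTCA in 6.75% and GGAATG in 12.6%. These are letter matches in a short window, not measured binding.

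All 9 members rose in obstructed kidneys with the KO label, and apart from Col11a1, whose sham counts were at or near 0, the rise was largest for the type I and III chains and for type XII. Relative to KO-labelled sham kidneys the fitted fold was 72.9 for Col1a1, 43.1 for Col1a2, 70.4 for Col3a1 and 77.0 for Col12a1, against 5.49 for Col14a1, the other surface collagen. Type V chains lay between them. Of the 16395 genes tested in this comparison, 34.7% were higher at an adjusted p under 0.05 (edgeR quasi-likelihood test, Benjamini-Hochberg adjustment), here called. The members' median log2 fold change was 5.43, and that of all genes tested was 0.23.

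Col1a1, the larger part of the type I fibril, had 4063.9, 1751.1, 3218.1 and 1457.8 CPM in the UUO KO libraries, against 29.54, 42.68, 28.17 and 43.45 CPM in the sham KO libraries (log2 fold change 6.19, SE 1.25, adjusted p = 7.35e-04). Its partner chain Col1a2 had 2964.6, 2013.4, 2813.4 and 1912.8 CPM in UUO KO kidneys, against 49.6, 56.72, 47.57 and 71.13 CPM in sham KO kidneys (5.43, SE 1.02, 4.27e-04). Col3a1 had 3260.7, 1887.7, 3216.8 and 1434.4 CPM in UUO KO kidneys, against 32.15, 41.2, 21.63 and 44 CPM in sham KO kidneys (6.14, SE 1.04, 1.86e-04). For each of the 3 genes the lowest obstructed library lay far above the highest sham library. UUO KO 1 and UUO KO 3 were the high pair and UUO KO 2 and UUO KO 4 the low pair for all 3.

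Among the chains that start fibrils, Col5a1 averaged 258.3 ± 101.3 CPM in UUO KO kidneys and 10.92 ± 2.55 CPM in sham KO kidneys (SD, n = 4 each; log2 fold change 4.56, edgeR adjusted p = 7.95e-04). Col5a2 averaged 340.5 ± 85.8 CPM in UUO KO kidneys and 40.17 ± 10.5 CPM in sham KO kidneys (3.08, adjusted p = 0.00227). Col5a3, the type V chain lowest per kilobase in obstructed kidneys, had 52.94, 13.11, 43.41 and 30.53 CPM in UUO KO kidneys, against 4.177, 4.543, 2.602 and 8.808 CPM in sham KO kidneys (2.78, SE 0.68, adjusted p = 0.00311). Col11a1, a cartilage chain, had 20.54, 9.169, 29.12 and 20.89 CPM in UUO KO kidneys, and in sham KO kidneys 2 of 4 libraries had no read and the others 0.1487 and 0.1678 CPM. It was called at an adjusted p of 0.00137. Its raw counts were 172 to 634 in UUO KO and 0 to 4 in sham KO kidneys, so the size of its fold rests on a handful of sham reads. No obstructed library overlapped a sham library for any of the 4 genes.

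The surface collagens split by size of change. Col12a1, a chain known from tendon and other tissues under tension, had 872.9, 562.9, 797 and 359.4 CPM in UUO KO kidneys, against 7.533, 9.444, 7.136 and 9.437 CPM in sham KO kidneys (log2 fold change 6.27, SE 0.69, edgeR adjusted p = 5.71e-06). Col14a1 had 225.4, 144.8, 195.8 and 67.67 CPM in UUO KO kidneys, against 32.89, 35.43, 25.2 and 21.85 CPM in sham KO kidneys (2.46, SE 0.41, 1.52e-04). Per kilobase Col12a1 ranked above Col14a1 in UUO KO kidneys and below it in sham KO kidneys. The Col12a1 to Col14a1 ratio of CPM was 3.87 to 5.30 in UUO KO kidneys and 0.231 to 0.434 in sham KO kidneys.

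**Figure D1:**
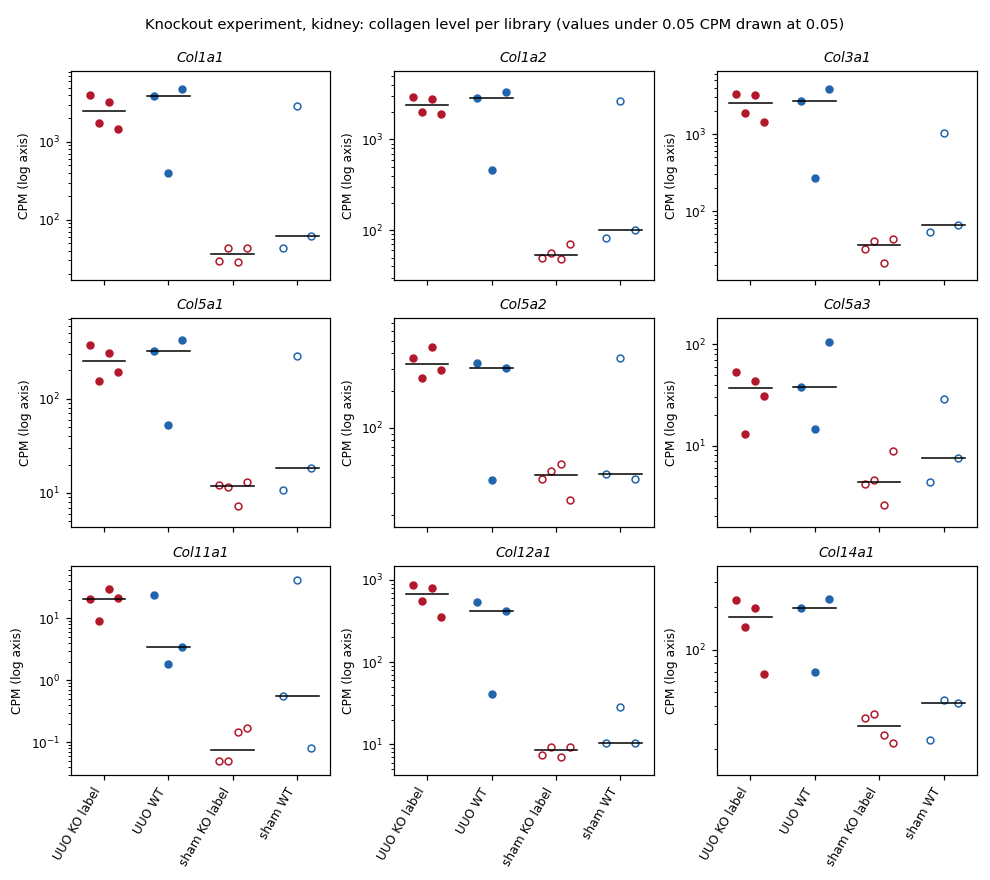
Normalised read count (CPM, log axis) of each of the 9 members in every kidney library of the knockout experiment, with UUO groups (filled) before sham groups (open), the KO label in red, WT in blue and the group median as a black line. All UUO KO libraries lie above all sham KO libraries for every member, and 1 sham WT library, sham WT 3, lies among the obstructed ones for most members. Values under 0.05 CPM are drawn at 0.05.

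In WT kidneys the outcome hung on a single sham library. With every used library in, 2 of 9 members were higher in UUO WT kidneys than in sham WT kidneys, Col12a1 (log2 fold change 4.34, SE 0.73, edgeR adjusted p = 4.04e-04) and Col14a1 (2.19, SE 0.46, 0.00212), where 23.3% of all genes were higher. Without sham WT 3, 9 of 9 were higher, where 22% of all genes were.

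The Col1a1 count was 3892.4, 393.2 and 4833.5 CPM in UUO WT 2, 3 and 4, against 42.64, 2860.7 and 61.77 CPM in sham WT 2, 3 and 4 (log2 fold change 1.62, SE 1.18, edgeR adjusted p = 0.294). Col1a2 was 2872.2, 457 and 3366.2 CPM in UUO WT kidneys, against 81.11, 2641.8 and 99.32 CPM in sham WT kidneys (1.25, adjusted p = 0.338). Col3a1 was 2713.0, 268 and 3892.1 CPM in UUO WT kidneys, against 53.92, 1038.1 and 66.46 CPM in sham WT kidneys (2.57, adjusted p = 0.0576). In all 3 genes sham WT 3 lay above UUO WT 3, so the groups overlapped.

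Sham WT 3 lay above UUO WT 3 in the type V and XI chains as well. Col5a1 had 325.8, 52.46 and 421.1 CPM in UUO WT kidneys, against 10.8, 286.9 and 18.45 CPM in sham WT kidneys. Col5a2 had 335.1, 38.19 and 306.7 CPM in UUO WT kidneys, against 42.32, 363.8 and 38.63 CPM in sham WT kidneys, so that sham WT 3 was the highest of the 6 libraries. Col5a3 had 37.71, 14.71 and 106 CPM in UUO WT kidneys, against 4.32, 28.48 and 7.494 CPM in sham WT kidneys (log2 fold change 2.01, edgeR adjusted p = 0.051). Sham WT 3 also held the highest Col11a1 value, 41.03 CPM, above the 23.93, 1.839 and 3.491 CPM of the UUO WT kidneys. The surface collagens differed from the rest: Col12a1 had 532.9, 41.48 and 421.4 CPM in UUO WT kidneys, against 10.48, 28.64 and 10.54 CPM in sham WT kidneys, and Col14a1 had 198.1, 69.5 and 229.4 CPM in UUO WT kidneys, against 23.04, 44.09 and 42.33 CPM in sham WT kidneys. Neither of these 2 genes overlapped between groups.

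Without sham WT 3 the log2 fold changes in WT kidneys were 5.75 for Col1a1 (edgeR adjusted p = 3.24e-04), 4.52 for Col1a2, 5.14 for Col3a1, 4.08 for Col5a1, 2.38 for Col5a2, 3.05 for Col5a3, 4.79 for Col11a1, 4.88 for Col12a1 and 2.23 for Col14a1. The median was 4.52, and that of all genes tested 0.11. Without UUO WT 3 alone, 4 of 9 were higher (Col3a1, Col5a3, Col12a1 and Col14a1), where 21.2% of all genes were. Without both, an omission chosen after seeing the data, 9 of 9 were higher with a median of 5.00, where 21.3% of all genes were. In KO-labelled kidneys, whose own libraries stayed the same, all 9 were called under each of these omissions.

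Markers of other cells moved with the 2 libraries. Sham WT 3 had a summed fibroblast and stellate marker level of 392.1 CPM over 8 genes, the highest of the sham WT kidneys and below all UUO WT kidneys, whose lowest was UUO WT 3 at 656.2 CPM. Its 6 proximal tubule markers summed to 20498.1 CPM, below the 34343.4 CPM or more of the other sham kidneys and far above the 1749.9 to 2737.2 CPM of UUO WT kidneys. Its distal nephron markers summed to 2003.2 CPM, against 3497.8 CPM or more in the other sham kidneys and 751.8 to 2712.7 CPM in UUO WT kidneys. Its 5 macrophage markers summed to 57.92 CPM, against 468.7 to 929.6 CPM across UUO kidneys. Its adipocyte markers reached 268.2 CPM and its skeletal muscle markers 34.59 CPM, against at most 44.39 and 0.16 CPM in the other sham kidneys. Its cartilage and bone markers summed to 7.884 CPM, beside its 41.03 CPM of Col11a1, against at most 2.475 CPM in the other sham kidneys and 1.298 to 13.15 CPM in UUO WT kidneys. UUO WT 3 also had a high adipocyte level, 247.2 CPM. The part of these cells in the collagen values was not tested.

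**Figure D2:**
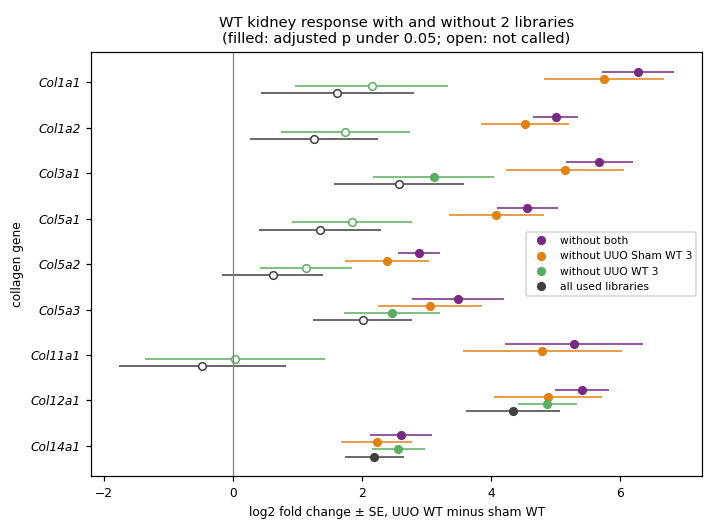
Log2 fold change with its SE (horizontal axis) of each member in UUO WT against sham WT kidneys under 4 choices of libraries: without both doubtful libraries (purple), without sham WT 3 (orange), without UUO WT 3 (green) and with all used libraries (dark grey). Filled points had an adjusted p under 0.05. Col1a1 sits at 1.62 with all used libraries and at 5.75 without sham WT 3.

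KO-labelled and WT obstructed kidneys were not separated by any member. In UUO kidneys 0 of 9 members were lower or higher, with log2 fold changes of -0.59 to 1.03 (edgeR adjusted p 0.49 to 0.985), where 0% of all genes were lower and 1902 genes, none of them a member, had an unadjusted p under 0.05. DESeq2 called 0 of 9 as well, where it called 0.0281% of all genes in either direction. For Col1a1 the UUO KO range, 1457.8 to 4063.9 CPM, lay inside the UUO WT range, 393.2 to 4833.5 CPM. Without UUO WT 3 and sham WT 3 the members' values ran from -1.04 to 0.53.

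In sham kidneys 0 of 9 members were called, where 0.0061% of all genes were called in either direction and 2575 had an unadjusted p under 0.05, 6 members among them. All 9 values were below 0, with a median of -3.26 that became -0.41 without sham WT 3. DESeq2 called 5 of 9 lower, where it called 1.7% of all genes lower. The difference in response between the KO-labelled and WT kidneys was called for 0 of 9, where 0% of all genes were called and 4466 had an unadjusted p under 0.05, 7 members among them. Its median over the members was 3.21, 0.58 without sham WT 3 and 0.08 without both libraries, and DESeq2 called 4 of 9 higher, where it called 6.91% of all genes higher. Both medians rest on sham WT 3.

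Around the members, other parts of the collagen pathway were counted from lists. In KO-labelled kidneys the fibril-binding proteins rose most broadly: 17 of 18 were higher and 0 lower (median log2 fold change 4.14, against 0.23 for all genes). Decorin (Dcn), which coats fibrils and spaces them, averaged 531.7 ± 228.2 CPM in UUO KO and 21.71 ± 6.76 CPM in sham KO kidneys (SD, n = 4 each), and tenascin C (Tnc), a matrix protein of injured tissue, had a log2 fold change of 5.03 (edgeR adjusted p = 7.22e-06). Of 13 genes for cleavage and cross-linking, 8 were higher and 0 lower, led by the cross-linker Loxl2 (3.79 ± 0.40 SE) and by Adamts2 (5.14 ± 0.57 SE) and Bmp1 (3.60 ± 0.43 SE), which cut the ends off procollagen. Of 9 collagen receptors, 8 were higher, among them Mrc1 (5.83), which takes up collagen fragments, and 1, the tyrosine kinase Ddr1, was lower (-0.62).

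Genes for folding in the endoplasmic reticulum were higher in 10 of 21 cases and lower in 4 in the same kidneys (median 0.58). Of all 16395 genes tested, 4002 were lower, a larger share than 4 of 21. Plod2, the lysyl hydroxylase for cross-link sites, averaged 117.7 ± 16.65 CPM in UUO KO and 46.15 ± 13.06 CPM in sham KO kidneys, while P4hb, the shared subunit of prolyl 4-hydroxylase, had a log2 fold change of -0.89 (edgeR adjusted p = 8.73e-04). Of 13 genes for breakdown and uptake, 9 were higher, among them the collagenolytic protease Ctsk (4.60), and 2 lower, Timp3 (-1.93) and the dipeptidase Pepd (-2.66). Of 8 other fibrillar and fibril-associated collagens tested, 2 were higher, a share below the 34.7% of all genes, including Col16a1 (2.39). Another 2 were lower, Col27a1 (-1.91) and Col19a1 (-5.12), a share near that of all genes. Proximal tubule markers fell in 6 of 6 cases and macrophage markers rose in 5 of 5 in this comparison, and their part in these counts was not tested. Decorin and lumican stand in both the fibril-binding list and the fibroblast marker list.

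In WT kidneys the list counts again depended on sham WT 3, while the share of all genes called higher was 23.3% with it and 22% without it. Fibril-binding proteins were higher in 6 of 18 cases with it and in 14 of 18 without it, genes for cleavage and cross-linking in 4 of 13 with it and 8 of 13 without it, and folding genes in 4 of 21 with it, a share near that of all genes, and 9 of 21 without it. Receptors gave 7 of 9 either way.

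Livers after bile duct ligation showed a less even picture, with members called in both directions. In WT livers 6 of 8 tested members were higher than in sham WT livers and 1, Col5a3, was lower. Of all 13492 genes tested, 16.3% were higher and 1724 genes were lower, a share near 1 of 8. In KO-labelled livers 3 of 8 were higher, Col1a1, Col1a2 and Col5a2, and 2 lower, Col5a3 and Col14a1. Of the same 13492 genes, 14% were higher there and 1508 genes were lower. Col11a1 was left out of the tests, with 0 to 5 reads in BDL KO, 6 to 15 in BDL WT and none in the sham livers.

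In WT livers Col1a1 had 150, 123.4, 394.3 and 245.4 CPM after BDL, against 17.94, 26.25, 13.9 and 5.279 CPM after sham (14.4-fold, log2 fold change 3.85, SE 0.60, edgeR adjusted p = 4.11e-04). Col1a2 had 117.3, 113.4, 323.8 and 232.6 CPM in BDL WT livers, against 17.18, 24.84, 12.25 and 10.43 CPM in sham WT livers (12.2-fold, 8.26e-05). Col3a1 had 146.3, 196.3, 742.7 and 303.7 CPM in BDL WT livers, against 29.88, 51.53, 27.52 and 14.93 CPM in sham WT livers (11.2-fold, 9.65e-04). BDL WT 3 was the highest library for all 3, and none overlapped the sham group.

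In KO-labelled livers Col1a1 had 33.01, 104.9, 127.5 and 53.39 CPM after BDL, against 15.46, 35.72, 19.34 and 7.246 CPM after sham (log2 fold change 2.03, SE 0.56, edgeR adjusted p = 0.0164). BDL KO 1 lay below sham KO 2, so the groups overlapped although the gene was called. Col1a2 was higher (1.64, SE 0.42, 0.0115). Col3a1, with 15.4, 119.3, 82.16 and 69.43 CPM in BDL KO livers and 37.08, 70.72, 46.45 and 27.22 CPM in sham KO livers, was not called (0.66, SE 0.56, 0.405).

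The type V chains parted in liver. Col5a2 rose under both labels, by a log2 fold change of 2.02 in KO-labelled livers (edgeR adjusted p = 0.0023) and of 3.52 in WT livers (11.5-fold, 4.28e-05). Col5a1 rose in WT livers (1.86, 0.00123) and had 0.43 in KO-labelled livers (0.361). Col5a3 went the other way under both labels. It had 6.344, 14.08, 3.117 and 17.59 CPM in BDL KO livers, against 130.6, 97.16, 136 and 121.9 CPM in sham KO livers (log2 fold change -3.56, SE 0.50, 2.93e-04). In WT livers it had 12.5, 13.66, 38.75 and 9.222 CPM after BDL, against 104.5, 141.7, 148.9 and 154.8 CPM after sham (-2.89, SE 0.48, 6.69e-04). Neither pair of groups overlapped, and Col5a3 was the one member with a fall called under both labels.

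Changes of the surface collagens in liver were small and depended on single libraries. Col12a1 had 6.282, 4.698, 7.43 and 5.288 CPM in BDL WT livers, against 2.118, 4.428, 3.44 and 1.629 CPM in sham WT livers (log2 fold change 1.03, edgeR adjusted p = 0.0389), and -0.09 in KO-labelled livers (0.871). The Col12a1 call was lost in 8 of 16 omissions of a single library. Col14a1 fell in KO-labelled livers, with 6.59, 22.46, 16.46 and 26.55 CPM after BDL, against 36.36, 45.97, 42.47 and 40.26 CPM after sham (-1.19, SE 0.41, 0.0445), a call lost in 11 of 16 such omissions. In WT livers it was not called (0.41, 0.462).

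**Figure D3:**
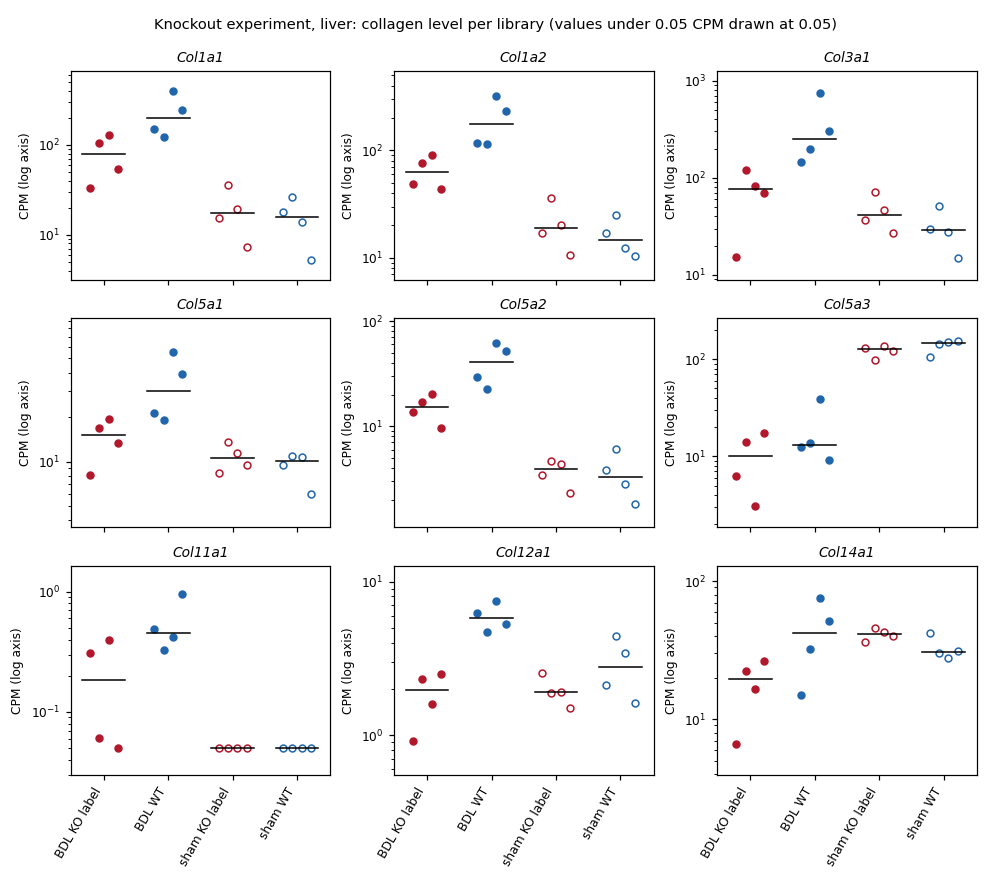
Normalised read count (CPM, log axis) of each member in every liver library of the knockout experiment, BDL groups (filled) before sham groups (open), KO label in red, WT in blue, group median as a black line. Col5a3 alone sits lower after BDL under both labels, at 3.117 to 17.59 CPM in BDL KO and 9.222 to 38.75 CPM in BDL WT livers.

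Ligated livers with the KO label held less of most members than ligated WT livers. Of 8 tested members 5 were lower and 0 higher, where 1.72% of all genes were lower: Col1a2 (log2 fold change -1.59, edgeR adjusted p = 0.0445), Col3a1 (-2.28, 0.0433), Col5a1 (-1.22, 0.0498), Col5a2 (-1.47, 0.0422) and Col12a1 (-1.68, 0.0384). Col1a1 had -1.52 (0.0955), Col14a1 -1.28 (0.0741) and Col5a3 -0.85 (0.248). DESeq2 called 7 of 8 lower, all but Col5a3, where it called 5.76% of all genes lower. The members' median was -1.49, and that of all genes tested -0.02.

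Col1a2 had 48.41, 76.99, 91.43 and 44.02 CPM in BDL KO livers, against 117.3, 113.4, 323.8 and 232.6 CPM in BDL WT livers. Col5a2 had 13.73, 16.83, 20.3 and 9.593 CPM in BDL KO livers, against 29.56, 22.72, 62.47 and 52.43 CPM in BDL WT livers. Col12a1 had 0.9239, 2.326, 1.598 and 2.512 CPM in BDL KO livers, against 6.282, 4.698, 7.43 and 5.288 CPM in BDL WT livers. In these 3 genes, and in Col3a1, every KO-labelled library lay below every WT library. How many of all genes part in this way was not counted, and 3601 of the 13492 tested had an unadjusted edgeR p under 0.05. The lack of overlap is therefore not read as particular to the members. For Col5a1 the groups touched, with BDL KO 3 at 19.34 CPM and BDL WT 2 at 19.23 CPM.

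All 5 adjusted p-values lay between 0.0384 and 0.0498, and small changes of input removed them. Leaving out any library other than BDL WT 1, BDL KO 2 or BDL KO 4 left 0 of 8 called. Without BDL KO 1 and BDL KO 3, the 2 libraries of the group that the labels mark as having a bad fastq file, 0 of 8 were called and the values of the 5 were -1.86 to -1.13. The other cells of the liver differed along with the members: 6 hepatocyte markers summed to 78075.6 to 119984.0 CPM in BDL KO and 42261.5 to 75033.2 CPM in BDL WT livers, and 4 cholangiocyte markers to 16.33 to 57.78 CPM in BDL KO and 61.89 to 126.2 CPM in BDL WT livers, both without overlap. The fibroblast and stellate markers overlapped, at 183.7 to 370.2 CPM in BDL KO and 164.7 to 436 CPM in BDL WT livers. The part of cell makeup in the collagen difference was not tested.

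Sham livers did not separate the labels. In them 0 of 8 members were called by edgeR or DESeq2 (log2 fold changes -0.56 to 0.55), where 0% of all genes were called and 70, with 0 members, had an unadjusted p under 0.05. The difference in response between KO-labelled and WT livers was below 0 for all 8 members, -2.83 to -0.67, and was called for 0 of 8 by edgeR (adjusted p 0.227 to 0.66), where 0% of all genes were called and 1952 had an unadjusted p under 0.05, 7 members among them. DESeq2 called 1 of 8, Col3a1 (-2.81, adjusted p = 0.0446), where it called 0.36% of all genes lower.

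Partner genes in liver were counted from the same lists. In WT livers, where 16.3% of all genes were higher, 12 of 16 fibril-binding proteins were higher and 0 lower (median log2 fold change 1.90, against 0.03 for all genes), among them lumican (Lum), another fibril spacer, at 3.07 ± 0.40 SE, and thrombospondin 1 (Thbs1) at 4.68. Genes for cleavage and cross-linking were higher in 6 of 11 cases, with lysyl oxidase (Lox) averaging 15.76 ± 9.10 CPM in BDL WT and 0.4994 CPM in sham WT livers, and folding genes in 6 of 19, with 1 lower, Ppib (-0.40). Breakdown genes were higher in 8 of 11 and lower in 1, Pepd (-0.54), with the protease inhibitor Timp1 at 6.90, and receptors were higher in 5 of 8 and lower in 1, Itga10 (-2.02). Col27a1 was lower in BDL WT livers (-2.83), as was Col11a2 (-1.35).

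With the KO label, where 14% of all genes were higher, the liver counts were 5 higher and 1 lower of 16 fibril-binding proteins, the lower one Tnxb (log2 fold change -0.89), 5 of 11 for cleavage and cross-linking, 4 higher and 1 lower (Fkbp14, -0.58) of 19 folding genes, 5 of 11 for breakdown and 2 higher and 1 lower of 8 receptors. Between ligated KO-labelled and WT livers 4 of 16 fibril-binding proteins were lower, among them periostin (Postn, -1.88, edgeR adjusted p = 0.0409), Thbs2 (-1.98) and the collagen-binding protein Sparc (-1.08). P4hb was the 1 folding gene called, and it was higher, at 2687.1 ± 651.1 CPM in BDL KO and 1489.1 ± 332.1 CPM in BDL WT livers (SD, n = 4 each).

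The response to injury differed between the organs for most members under the KO label. In 1 fit over both organs, the kidney response minus the liver response was positive and called for 7 of 9 members, where 38.4% of all 16852 genes tested were called in either direction. It was 6.13 for Col12a1 (SE 0.73, edgeR adjusted p = 1.06e-06), 6.11 for Col5a3 (SE 0.86, 8.16e-06), 5.25 for Col3a1, 3.93 for Col1a1, 3.91 for Col5a1, 3.57 for Col1a2 and 3.43 for Col14a1 on the log2 scale. Col5a2 had 0.83 (0.44). No value is given for Col11a1, since it had no read in sham livers. The median of all genes was -0.11.

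In WT animals the organ difference was called higher in kidney for Col5a3 (4.83, edgeR adjusted p = 4.63e-04) and Col12a1 (3.22, 0.00234) and lower for Col5a2 (-2.96, 0.0154), where 21.6% of all genes were called. Without sham WT 3, Col5a1 joined the higher ones (2.18, 0.0331) and Col5a2 was no longer called (-1.19, 0.25). Col5a3 and Col12a1 were called under both choices of libraries and under both labels. Kidney and liver models differ in organ, operation and libraries at once, and these cannot be told apart.

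In the inhibitor experiment obstruction again raised nearly the whole family. In kidneys of UNC569 animals 9 of 9 members were higher after UUO than after sham, where 27.5% of all 15338 genes tested were higher, and in kidneys of DMSO animals 7 of 9, where 29.7% were. Col11a1, near 0 in every sham kidney, reached 1 FPKM in 3 libraries, the condition for testing, only through obstructed kidneys. Its call with UNC569 is therefore not read as support. These values are FPKM, tested with limma on log2(FPKM + 1), a scale that understates the change of low genes, and the depth behind them is unknown.

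Col1a1 ran from 41.45 to 211.3 FPKM with a median of 105.7 in UUO UNC569 kidneys, against 4.271, 3.614 and 2.302 FPKM in sham UNC569 kidneys (log2 fold change 4.53, SE 0.37, limma adjusted p = 1.09e-08). In DMSO kidneys it was 193.3, 214.2, 236.4 and 138.3 FPKM after UUO, against 4.784, 7.986 and 7.214 FPKM after sham (4.68, SE 0.41, 5.23e-08). Col3a1 ran from 40.2 to 183.8 FPKM with a median of 113.7 in UUO UNC569 kidneys, against 5.089, 5.608 and 3.479 FPKM in sham UNC569 kidneys (4.13, 2.97e-08). Col1a2 rose alike, by 4.07 with UNC569 and 3.96 with DMSO. No injured library of these genes overlapped a sham library.

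The type V chains rose less. Col5a1 changed by 3.05 in UNC569 and 3.16 in DMSO kidneys on the log2 scale, Col5a2 by 1.82 in UNC569 and 2.56 in DMSO kidneys, and Col5a3 by 1.17 in UNC569 and 1.32 in DMSO kidneys, all called by limma. Col11a1 was listed at 0 in every sham UNC569 kidney and at 0.1147 to 2.477 FPKM in UUO UNC569 kidneys (adjusted p = 0.0486, lost in 10 of 14 omissions of a library), and it was not called in DMSO kidneys (0.0642).

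Col12a1 ran from 38.29 to 449.6 FPKM with a median of 69.68 in UUO UNC569 kidneys, against 2.077, 2.806 and 3.04 FPKM in sham UNC569 kidneys (log2 fold change 4.93, limma adjusted p = 2.79e-06). In DMSO kidneys it had 221.2, 239.6, 187.1 and 104.4 FPKM after UUO, against 1.736, 3.542 and 3.489 FPKM after sham (5.56, 3.23e-06). It was the widest member among UUO UNC569 kidneys, where 3 libraries, at 397.7, 151.3 and 449.6 FPKM, stood above the other 4, at 38.29 to 69.68 FPKM. Col14a1 was higher after UUO with UNC569 (1.11, 0.00336) and not called with DMSO (0.60, 0.129).

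UNC569 and DMSO kidneys after obstruction were not told apart by any member. All 9 log2 fold changes of UUO UNC569 against UUO DMSO were below 0, from -0.95 for Col1a1 to -0.06 for Col11a1, and 0 of 9 were called by limma, where 1.05% of all genes were lower. Of the 15338 genes tested, 2829, with 3 members among them, had an unadjusted limma p under 0.05. The 95% interval for Col1a1 was -1.60 to -0.29 and its adjusted p 0.147. The UUO UNC569 values of Col1a1, 168, 78.97, 211.3, 105.7, 63.16, 41.45 and 118.6 FPKM, overlapped the 138.3 to 236.4 FPKM of UUO DMSO kidneys, with 5 of 7 below the lowest of these. Summed fibroblast and stellate markers also had a wider range with UNC569, 110.6 to 461.1 FPKM, than with DMSO, 299.8 to 388.4 FPKM, and their part was not tested.

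In sham kidneys Col14a1 was lower with UNC569, at 4.383, 4.772 and 2.004 FPKM, against 9.368, 9.98 and 10.29 FPKM with DMSO (log2 fold change -1.26, SE 0.35, limma adjusted p = 0.0188). The groups did not overlap. It was 1 of 9 members called there, where 19.3% of all genes were called in either direction, and the call was lost when any of 3 sham libraries was left out. Fibroblast and stellate markers summed to 33.84 to 54.89 FPKM in sham UNC569 and 125.9 to 130.5 FPKM in sham DMSO kidneys, without overlap. Macrophage markers (38.82 to 78.29 with UNC569, 101.1 to 139.6 with DMSO), endothelial markers (23.14 to 37.71 with UNC569, 58.02 to 63.65 with DMSO), smooth muscle markers (28.81 to 44.8 with UNC569, 57 to 83.75 with DMSO) and proximal tubule markers (39280.6 to 44127.2 with UNC569, 53611.6 to 59825.4 with DMSO) also parted without overlap, in FPKM. The part of these markers was not tested. The response to obstruction differed between UNC569 and DMSO for 0 of 9 members (-0.73 to 0.51, limma adjusted p 0.372 to 0.959), where 19.6% of all genes were called and 0 members had an unadjusted p under 0.05.

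Counts of the partner lists in these kidneys, where 27.5% of all genes were higher with UNC569 and 29.7% with DMSO, were not tested for a difference between injections. Fibril-binding proteins were higher in 14 of 17 cases in both UNC569 and DMSO animals, genes for cleavage and cross-linking in 8 of 10 with UNC569 and 6 of 10 with DMSO, and receptors in 7 of 7 with UNC569 and 6 of 7 with DMSO. Folding genes split into 11 higher and 5 lower of 21 with UNC569 and 7 higher and 8 lower with DMSO. Of all 15338 genes tested, 5294 were lower with UNC569 and 3957 with DMSO. Breakdown genes were higher in 8 of 11 cases with UNC569 and 6 of 11 with DMSO, and lower in 2 with each. Of 3 other fibrillar and fibril-associated collagens tested, 2 were higher and 1 lower with UNC569, and 1 was higher and 1 lower with DMSO. The collagen chaperone Serpinh1 had 535.8 FPKM in UUO UNC569 and 92.97 FPKM in sham UNC569 kidneys. Between UUO UNC569 and UUO DMSO kidneys 1 of 17 fibril-binding proteins was lower, fibromodulin (Fmod), at 5.05 ± 1.93 FPKM in UUO UNC569 and 10.8 ± 0.75 FPKM in UUO DMSO kidneys (SD, n = 7 and 4; log2 fold change -1.03, limma adjusted p = 0.0326).

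**Figure D4:**
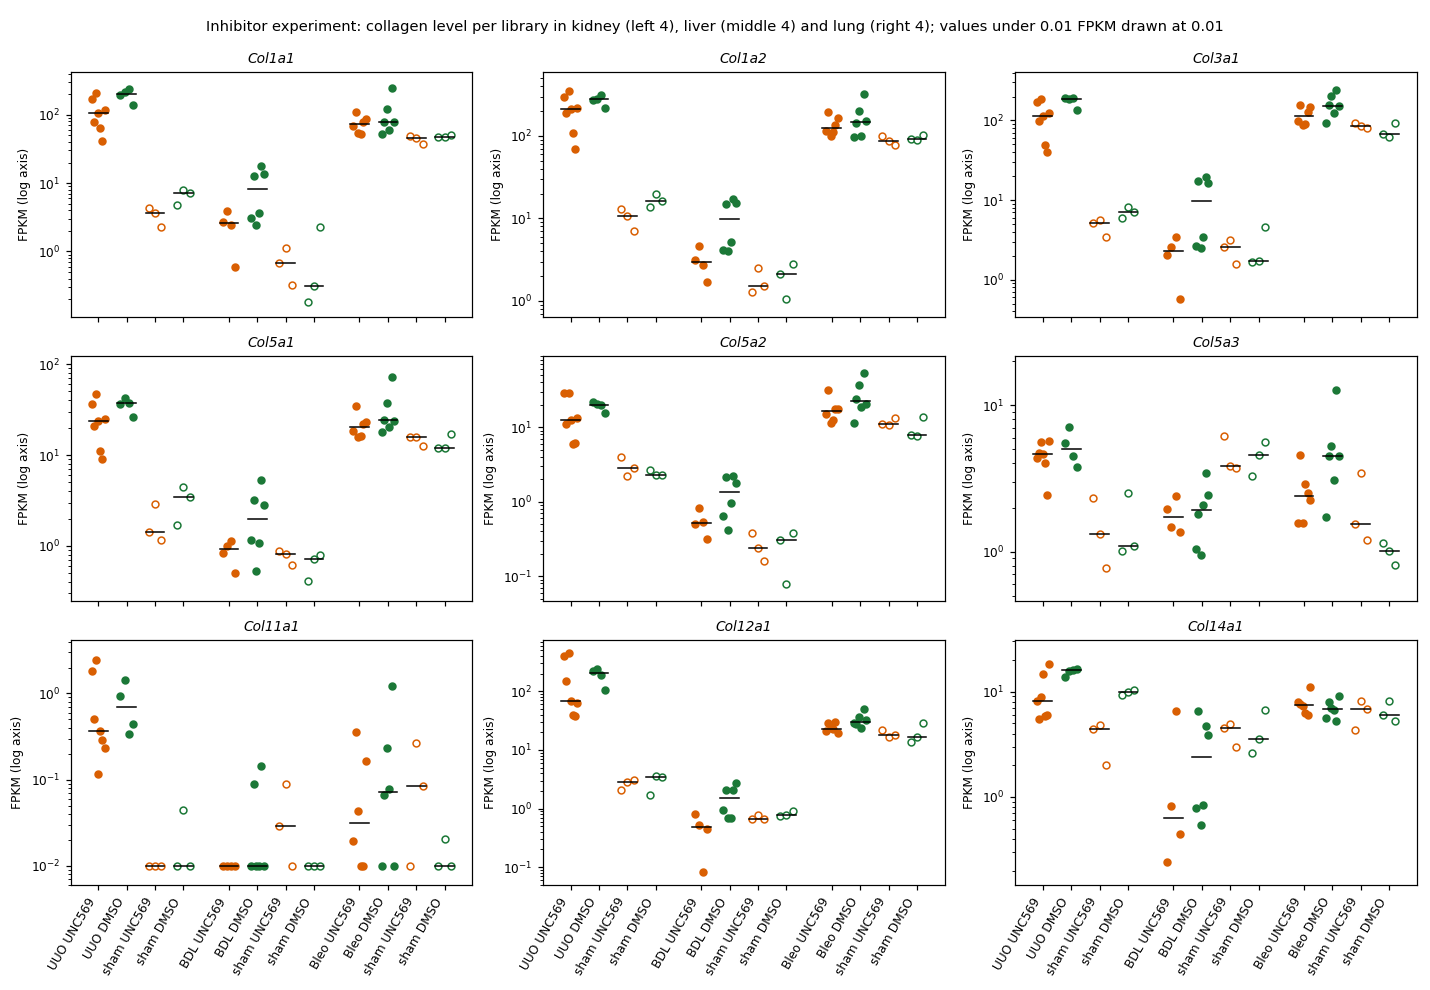
FPKM (log axis) of the members in every kidney, liver and lung library of the inhibitor experiment, injured groups (filled) before sham groups (open), UNC569 in orange, DMSO in green, group median as a black line, values under 0.01 FPKM drawn at 0.01. Injured and sham kidneys are apart for Col1a1, while the UUO UNC569 range, 41.45 to 211.3 FPKM, overlaps that of UUO DMSO, 138.3 to 236.4 FPKM.

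In livers of the inhibitor experiment the type I chains and Col5a2 were called higher after ligation with DMSO, and no member was called higher with UNC569. Col5a2 reached 1 FPKM in 3 libraries, the condition for testing, only through BDL DMSO livers, the group where it was high. Its call is therefore not read as support. The difference in response between the 2 injections was itself called for 0 of 8 members. With DMSO 3 of 8 members, Col5a2 among them, were higher and 1 lower. Of all 12986 genes tested, 5.47% were higher and 7.92% lower. With UNC569 limma called 0 of 8 higher, also at an unadjusted p under 0.05, and 1 lower, where 3.66% were higher and 4.9% lower. Col1a1 had 3.043, 12.68, 2.439, 3.715, 18 and 13.45 FPKM in BDL DMSO livers, against 0.1833, 0.3181 and 2.317 FPKM in sham DMSO livers (log2 fold change 2.19, SE 0.53, limma adjusted p = 0.0131). In UNC569 livers it had 2.704, 3.859, 2.438 and 0.5925 FPKM after BDL, against 0.671, 1.141 and 0.3251 FPKM after sham (0.91, 0.376).

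For Col1a1, 3 BDL DMSO livers lay at 12.68 to 18 FPKM and 3 at 2.439 to 3.715 FPKM, and all 4 BDL UNC569 livers were below 4 FPKM. Col3a1 showed the same spread, with 2.023, 2.596, 3.439 and 0.5638 FPKM in BDL UNC569 livers and 2.672, 17.31, 2.462, 3.445, 19.21 and 16.15 FPKM in BDL DMSO livers. Cholangiocyte markers summed to 9.026 to 11.66 FPKM in BDL UNC569 livers and 8.283 to 58.91 FPKM in BDL DMSO livers, and their part was not tested. All 8 log2 fold changes of BDL UNC569 against BDL DMSO were below 0, from -1.52 to -0.03, and limma called 0 of 8 (adjusted p 0.187 to 0.972), where 0.193% of all genes were lower. Of the 12986 genes tested, 1454, with 6 members among them, had an unadjusted limma p under 0.05. Col5a2 had 0.6347, 2.112, 0.4218, 0.9591, 2.192 and 1.76 FPKM in BDL DMSO livers, against 0.3064, 0.07731 and 0.3765 FPKM in sham DMSO livers (log2 fold change 0.84, SE 0.26, limma adjusted p = 0.0435). The groups did not overlap, and the call was lost in 9 of the 13 omissions of a library in which the gene was tested, with an adjusted p of up to 0.164. Leaving out sham DMSO liver 1, as numbered in the deposited table, took the DMSO count of higher members to 0, and leaving out sham DMSO liver 0 took it to 1.

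Col5a3 was the member called lower with either injection, as it had been under both labels in the livers of the knockout experiment. It had 1.948, 1.478, 2.411 and 1.371 FPKM in BDL UNC569 livers, against 6.175, 3.82 and 3.721 FPKM in sham UNC569 livers (log2 fold change -0.98, SE 0.28, limma adjusted p = 0.0392), without overlap. In DMSO livers it ran from 0.9507 to 3.417 FPKM with a median of 1.94 after BDL, against 3.285, 4.537 and 5.638 FPKM after sham (-0.93, SE 0.26, 0.0273), with the highest BDL library above the lowest sham library. The UNC569 call was lost in 7 of 16 omissions of a library and the DMSO call in 2. Col14a1 averaged 2.021 ± 3.043 FPKM in BDL UNC569 and 4.141 ± 0.992 FPKM in sham UNC569 livers (SD, n = 4 and 3) and was not called. Without BDL UNC569 liver 2 of the deposited numbering Col14a1 was called lower as well (limma adjusted p = 0.0422). In sham livers and in the difference of response 0 of 8 members were called, where 0% of all genes were, with 241 and 610 genes and 0 members at an unadjusted p under 0.05.

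In lung, bleomycin gave no called change of any member. With UNC569 the 8 tested log2 fold changes were 0.23 to 0.71 (limma adjusted p 0.48 to 0.851), where 0.0188% of all 15935 genes were higher and 1687, with 0 members, had an unadjusted p under 0.05. With DMSO they were 0.09 to 1.48, where 0.0251% were higher and 3122, with 7 members, had an unadjusted p under 0.05. Median-of-ratios scaling, the other normalisation run, called 0 of 8 in both, where it called 0.0314% of all genes higher with UNC569 and 0.0691% with DMSO.

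Sham lungs already held Col1a1 at 36.75 to 49.88 FPKM. Col1a1 ran from 52.45 to 108.4 FPKM with a median of 72.51 in bleomycin UNC569 lungs, against 48.69, 46.2 and 36.75 FPKM in sham UNC569 lungs (log2 fold change 0.71). With DMSO it ran from 51.89 to 249 FPKM with a median of 78.07 after bleomycin, against 47.72, 47.31 and 49.88 FPKM after sham (0.90, limma adjusted p = 0.184). Every bleomycin lung was above every sham lung of its injection for Col1a1, and the bleomycin lungs spread over a wider range than the gap between group medians.

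The nearest to a call in lung were Col3a1 and Col5a3 with DMSO. Col3a1 ran from 93.63 to 240 FPKM with a median of 153.5 in bleomycin DMSO lungs, against 67.08, 62.45 and 91.67 FPKM in sham DMSO lungs (log2 fold change 1.07, SE 0.25, limma adjusted p = 0.0733). Col5a3 ran from 1.732 to 12.76 FPKM with a median of 4.492 in bleomycin DMSO lungs, against 1.15, 1.009 and 0.8059 FPKM in sham DMSO lungs (1.48, SE 0.37, 0.0789). Without sham DMSO lung 2 of the deposited numbering 4 of 8 members were called higher, without bleomycin DMSO lung 0 it was 3, and without bleomycin UNC569 lung 1 it was 1. The share of all genes called under these omissions is not given here, so these counts are not read as particular to the members. The sham DMSO lungs that remain without lung 2 were the most alike pair of lung libraries (r = 0.9892 across genes). Their heart muscle markers summed to 845 and 823.9 FPKM, against 55.38 FPKM in lung 2, and their adipocyte markers to 374.5 and 383.2 FPKM, against 4.155 FPKM in lung 2. With that pair averaged into 1 library 0 of 8 were called, and the part of these markers was not tested. Col14a1 had 0.09 (0.858).

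Between bleomycin UNC569 and bleomycin DMSO lungs 0 of 8 members were called (-0.69 to 0.14, limma adjusted p 0.867 to 0.905), where 0% of all genes were and 843, with 2 members, had an unadjusted p under 0.05. Sham lungs and the difference of response also gave 0 of 8, where 0% of all genes were called, with 1206 and 1893 genes, and 0 and 1 members, at an unadjusted p under 0.05. Sham lungs differed among themselves in heart tissue markers, whose sum ran from 80.24 to 908.1 FPKM in sham UNC569 and from 55.38 to 845 FPKM in sham DMSO lungs. In bleomycin lungs that sum was 28.1 to 474 FPKM with UNC569 and 31.15 to 288.9 FPKM with DMSO, and its part was not tested.

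**Figure D5:**
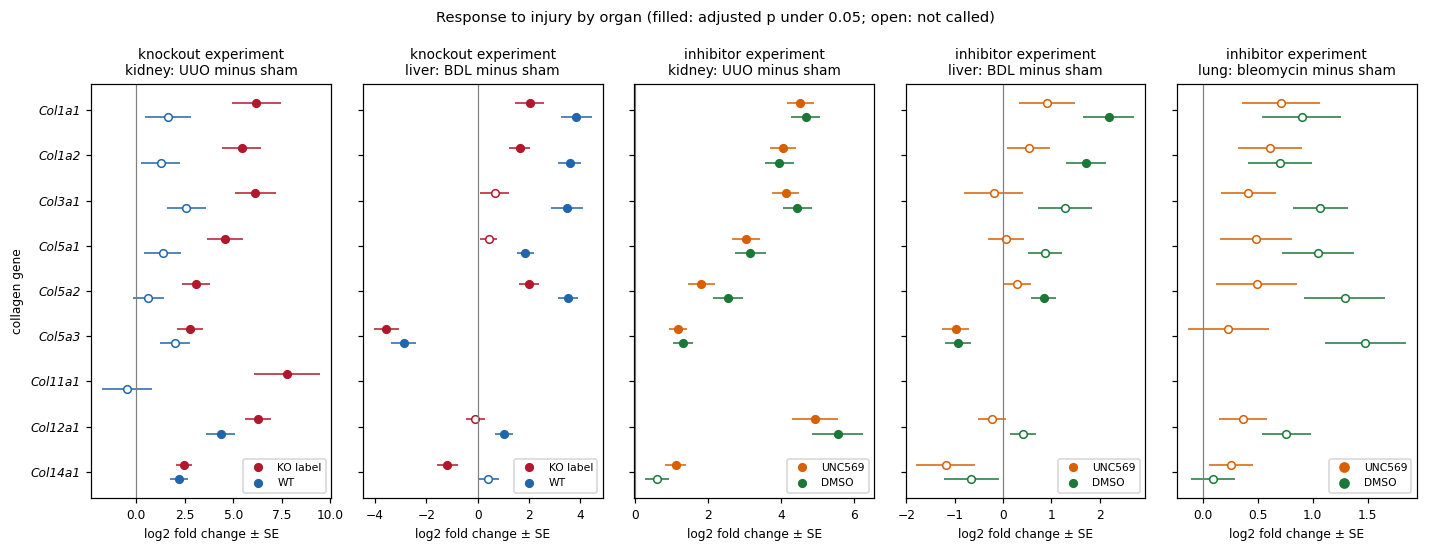
Log2 fold change of injured against sham tissue (± SE) for each member in each organ and group, in kidney and liver of the knockout experiment and in kidney, liver and lung of the inhibitor experiment. Filled points had an adjusted p under 0.05, and Col11a1 is drawn only for the kidneys of the knockout experiment. Col12a1 stands at 6.27 in KO-labelled kidneys and at -0.09 in KO-labelled livers, and Col5a3 is on the negative side in liver and on the positive side in kidney.

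Within the family the order of levels per kilobase of exon differed by organ. In UUO KO kidneys Col1a1 led at 399.6 ± 187.6 CPM per kb (SD, n = 4), above Col3a1 at 249.6, Col1a2 at 195.2 and Col12a1 at 42.56. Col12a1 was eighth of 9 in sham KO kidneys at 0.551 CPM per kb. The neighbours Col12a1, Col5a2, Col5a1 and Col14a1 stood in that order in 3 of 4 libraries at each step, as did Col3a1 and Col1a2, so these steps were within the spread. The members took 1.07 ± 0.363% of all reads in genes in UUO KO kidneys and 0.0183 ± 0.00204% in sham KO kidneys.

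Sham livers had another leader. Col5a3 was first per kilobase in all 8 sham livers of the knockout experiment, at 17.83 ± 2.52 CPM per kb with the KO label and 20.19 ± 3.33 with WT (SD, n = 4 each), against 5.884 with the KO label and 4.669 with WT for Col14a1, the next. After BDL it was seventh under both labels, at 1.51 CPM per kb in BDL KO and 2.722 CPM per kb in BDL WT livers. In sham livers of the inhibitor experiment Col5a3 was also first by mean FPKM, 4.572 with UNC569 and 4.487 with DMSO, and above Col14a1 in 2 of 3 libraries each.

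Ratios between members were compared with exact two-sided permutation tests. Of 39 tests 0 passed after adjustment, the smallest adjusted p being 0.0696, and 18 had an unadjusted p under 0.05. The largest shift was in Col12a1 relative to Col14a1 in obstructed kidneys, at 6.33 to 15.9 in UUO DMSO and 0.194 to 0.361 in sham DMSO kidneys. Col5a2 relative to Col1a1 was 0.0896 to 0.203 in UUO KO kidneys and 0.608 to 1.80 in sham KO kidneys (exact permutation p = 0.0286, the smallest that 4 against 4 allows). The same ratio was 0.0947 to 0.169 in UUO UNC569 and 0.617 to 1.23 in sham UNC569 kidneys (exact permutation p = 0.00833). Col3a1 relative to Col1a1 was 0.882 to 1.36 in BDL DMSO and 1.94 to 6.28 in sham DMSO livers (exact permutation p = 0.0119), and 0.468 to 1.30 in BDL KO and 1.98 to 3.72 in sham KO livers.

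Most members varied together across libraries. Against the mean of the other members, Pearson's r across the libraries of a table was 0.73 to 1.00 for every member but 2. Col5a3 had 0.92 in the kidneys and -0.46 in the livers of the knockout experiment. Col14a1 had 0.89 in those kidneys, 0.59 in the inhibitor kidneys, 0.33 and 0.43 in the livers and 0.02 in lung. The genes outside the family whose levels followed the members' mean most closely in all 5 tables, by their lowest r over 10831 genes, were Fbn1 (0.865), Tgfbi (0.851), Loxl2 (0.845), Arl4c (0.843), Sparc (0.839), Fstl1 (0.839), Tpm4 (0.825), Serpinh1 (0.820), Ckap4 (0.814) and Col6a3 (0.809). The tables hold 14, 16, 17, 16 and 18 libraries, which share groups, so the coefficients mostly describe differences between groups and are given with no test.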

How the data were processed

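Kidney and liver values of the knockout experiment are read counts per gene that the authors deposited, 1 file per library, of which the unstranded column was used. FPKM values of the inhibitor experiment are the authors' deposited tables. Per the submitters' processing notes, the tools included FastQC, Trim Galore, STAR and edgeR (versions not given in the sources used here), and builds hg38 and mm10 are both listed. Libraries came from a poly(A) kit without strand marking, per the labels' protocols. The members and gene lists were chosen with earlier results of these data known.

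Rows that name no gene held 20.9 to 67.6% of the reads and were left out of library sizes. The kidney titles UUO Sham WT 1 and UUO WT 1 were left out by the rule that defines the members' tables, which leaves 30 count libraries, 9 of them marked as having a bad fastq file. Counts were filtered with filterByExpr, scaled by TMM and tested with edgeR 4.0.16 quasi-likelihood tests in R 4.3.3, on 1 factor of groups per organ. The SE printed or drawn for an edgeR value is its absolute log2 fold change divided by the square root of the test's F statistic. Printed CPM are TMM-scaled. For FPKM, limma 3.58.1 was run on log2(FPKM + 1), for genes at 1 FPKM or more in at least 3 of the 51 columns' own organ. UUO UNC569 has 7 columns for 8 samples and BDL UNC569 4 for 6, and the other samples were not analysed here. P-values of the gene fits were adjusted by Benjamini-Hochberg over all genes tested in each comparison, and calls use 0.05. Those of the ratios were adjusted over the 39 ratio tests together. Ratios used a pseudocount of 0.1 and scipy 1.17.1 exact permutation tests, where both means were at least 0.5.

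Text names all 9 members, and from each list up to 3 genes with the smallest p plus called genes against the list's direction. Intervals of fits cover these libraries only, and a low count limits precision at the bottom of the range. The share of all genes without overlap between groups was not counted, so no lack of overlap is read as particular to the members. Alternatives were other scalings, DESeq2 1.42.0, no filter, another pseudocount, replicate numbers as a block, doubtful libraries left out and each library left out. Omitting sham WT 3 together with UUO WT 3, in the fits of kidney and of both organs, and omitting each WT kidney library from the fit over both organs were added after seeing the data. Replicate numbers did not pair the libraries. The scripts were tested on simulated data. A comparison of protein sequences was not made here.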

Additional observations from a re-analysis of the deposited data

Results flagged for a closer look

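Of 105 groups of 4 to 10 libraries tested, 8 held a library far from its neighbours, and chance flags about 1 in 20. In bleomycin DMSO lungs the highest library stood apart for Col1a1 (249 FPKM), Col5a1 (72.68 FPKM), Col5a3 (12.76 FPKM) and Col11a1 (1.232 FPKM), and in bleomycin UNC569 lungs for Col5a2 (31.98 FPKM). The highest BDL WT liver stood apart for Col5a3, at 38.75 CPM, and the highest BDL UNC569 liver for Col14a1, at 6.571 FPKM. Among UUO DMSO kidneys the lowest stood apart for Col3a1, at 134.4 FPKM.

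The injury response differed between kidney and liver by an interaction term in edgeR. In KO-labelled animals the kidney response exceeded the liver response, on the log2 scale, by 3.93 for Col1a1, 3.57 for Col1a2, 5.25 for Col3a1, 3.91 for Col5a1, 6.11 for Col5a3, 6.13 for Col12a1 and 3.43 for Col14a1. In WT animals the difference was 4.83 for Col5a3, 3.22 for Col12a1 and -2.96 for Col5a2, the last of which was not called without sham WT 3 (-1.19, adjusted p = 0.25).

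A signal also stood in a library outside the comparisons. The kidney titled UUO WT 1 held 8560.7 CPM of Col1a1, 6742.2 CPM of Col1a2, 7631.3 CPM of Col3a1, 612.4 CPM of Col5a1, 388.9 CPM of Col5a2, 195.6 CPM of Col5a3, 51.97 CPM of Col12a1 and 325.8 CPM of Col14a1. Its Col1a1, Col1a2, Col3a1, Col5a1, Col5a3 and Col14a1 values were above every UUO kidney used, and its Col12a1 value was the lowest but that of UUO WT 3. Its CPM come from a scaling that includes the left-out libraries, unlike those of the used kidneys, so the comparison is approximate.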

How the results depend on the processing

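Of the members' values under alternatives other than single omissions, 1131 kept direction and side of the threshold, 39 passed it, 34 lost it and 4 turned. Turned values were Col11a1 in UUO WT against sham WT kidneys (-0.47), at 5.33 without bad-fastq libraries, 4.79 without sham WT 3 and 5.28 without both doubtful libraries, and Col5a1 in the kidney minus liver difference of WT animals (-0.56), at 2.66 without both. Single omissions spanned -2.33 to 4.79 and -1.09 to 2.18 for these. The count of higher members in UUO WT kidneys (2) was 4 with library totals alone and with DESeq2, and 9 without bad-fastq libraries, without sham WT 3 or without both. With DESeq2, 5 members were lower between sham KO and sham WT kidneys, 4 higher in the kidney difference of response and 1 lower in that of liver, against 0 each. Between BDL KO and BDL WT livers the 5 lower members became 3 with a replicate block, and 0 with library totals alone, without bad-fastq libraries or without BDL KO 1 and BDL KO 3. The 2 lower members in BDL KO livers became 1 under those last 3 choices. In the organ difference of WT animals the 1 lower member became 2 with DESeq2, 0 with all 32 libraries and 0 without both doubtful kidneys, which also gave 4 higher members in place of 2. The 1 lower member in BDL UNC569 livers became 0 with a pseudocount of 0.1, no filter or median-of-ratios scaling, and that in BDL DMSO livers 0 with the last of these. Over single omissions the counts of members ran from 2 to 9 higher in UUO WT kidneys, 0 to 6 lower between sham KO and sham WT kidneys and 0 to 6 higher in the kidney difference of response, the 6 arising in both without sham WT 4. They ran from 1 to 2 lower in BDL KO livers, 0 to 6 lower between BDL KO and BDL WT livers, 0 to 3 lower in the organ difference of WT animals and 0 to 1 lower between sham UNC569 and sham DMSO kidneys. They ran from 0 to 2 lower in BDL UNC569 livers, 0 to 4 higher and 0 to 1 lower in BDL DMSO livers, and 0 to 4 higher in bleomycin DMSO lungs. No stability is read from the ratio tests, 0 of 39 of which passed after adjustment. The cause of these shifts was not tested. Same-numbered libraries of different groups correlated at -0.290 to 0.166 in kidney (over 0.1 in 4 of 19 pairs) and -0.296 to 0.267 in liver (5 of 24), so the replicate block carries no pairing, and it moved no other count of members by over 1.5 times. No paired analysis was possible for the FPKM tables because their columns carry no numbers that match the samples. Counts limit Col11a1, and FPKM depth is unknown.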
